A study of Mus musculus with 6 samples.

Results

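The genes described here are 40 genes of cytokine reception and of the signalling pathway behind it, in progenitor CD8 T cells of mice: 21 receptor chains and 19 genes for Janus kinases, STAT factors, inhibitors of the SOCS and PIAS type and PIM kinases. They were taken by gene symbol from the authors' deposited table of UTX CUT&Tag sites that differed between genotypes. In that table, 54 of 6739 sites, each 401 bp wide, were assigned to 32 of the 40 genes, and the other 8 had no listed site. CUT&Tag cuts and tags the DNA around an antibody-bound protein, so the reads at a site measure how much UTX lay there. The cells were CD8+ T cells positive for Ly108 and negative for CXCR6, sorted from pancreatic lymph nodes of NOD.NY8.3 mice, whose T cells share 1 transgenic receptor, specific for an islet antigen. One group was WT (3 samples). The other (3 samples) came from UTXTCD.NY8.3 mice, which lack UTX in T cells and carry the same transgenic receptor on the same background. The labels give no age, no Cre line and no deleted exon, and do not say whether samples of a group came from separate animals, so p-values measure the spread between these samples, which may be technical. The comparison asks which regions UTX occupies directly, with UTX-deficient cells as the background of the antibody.

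UTX, encoded by Kdm6a, removes methyl groups from lysine 27 of histone H3 and is part of enhancer-associated methyltransferase complexes. Signals of the cytokines named here, IL-18 excepted, reach the nucleus of a T cell through receptor chains that hold Janus kinases at their tails. The kinases phosphorylate STAT factors, which enter the nucleus and switch on target genes, among them the SOCS genes, whose proteins shut the receptor down again, and the PIM kinases, which promote survival. In CD8 T cells, IL-7 and IL-15 keep naive and memory cells alive, IL-2 drives expansion, and IL-12, IL-18 and interferons push effector function.

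At 15 of the 47 sites whose gene has a RefSeq start, each at a different gene, the site overlapped the promoter window of its own gene. The rest of the 54 sites, at Il2rb, Il27ra, Il10ra, Il10rb and Socs5, could not be counted, because the reference holds no start for these genes. Sites within 1 kb of a start are set beside the whole table below. Each promoter window was taken as the 250 bases before to 50 bases after a RefSeq start (GRCm38.p6, the assembly of mm10). The sequences of 7 of these windows follow, each 300 bases long and written 5′ to 3′ on the strand of the gene. Stat3, Pim1, Ifngr1 and Ifnar1 are shown because their promoter sites were the 4 member sites with the highest WT level. Stat2, Socs1 and Socs3 are shown, as is Ifnar1, for letters of the kind STAT and interferon-regulated factors recognise. Capitals mark matches to the STAT-type letters TTCNNNGAA (spacer of 3 bases), to the same ends with a spacer of 4 bases, or to the interferon response element-type motif, which is GAAA, 2 bases of any kind and GAAA. All were searched on both strands, and matches may overlap.
Stat3: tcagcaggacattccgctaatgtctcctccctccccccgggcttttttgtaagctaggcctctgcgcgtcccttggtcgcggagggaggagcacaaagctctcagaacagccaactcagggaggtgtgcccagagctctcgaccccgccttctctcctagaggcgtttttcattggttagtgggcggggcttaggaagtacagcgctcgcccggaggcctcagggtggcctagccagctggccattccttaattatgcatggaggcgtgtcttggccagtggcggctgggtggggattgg
Pim1: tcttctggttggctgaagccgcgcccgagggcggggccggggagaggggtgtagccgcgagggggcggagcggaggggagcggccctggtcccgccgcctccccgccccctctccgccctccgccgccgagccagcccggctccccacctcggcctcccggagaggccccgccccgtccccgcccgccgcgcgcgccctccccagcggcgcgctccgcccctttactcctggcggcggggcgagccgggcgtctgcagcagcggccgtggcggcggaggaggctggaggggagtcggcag
Ifngr1: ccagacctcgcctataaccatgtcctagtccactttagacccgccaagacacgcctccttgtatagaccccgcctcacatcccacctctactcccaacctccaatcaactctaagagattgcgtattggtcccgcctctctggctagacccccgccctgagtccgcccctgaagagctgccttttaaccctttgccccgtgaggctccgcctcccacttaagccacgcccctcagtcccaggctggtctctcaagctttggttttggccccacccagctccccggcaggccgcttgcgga
Ifnar1: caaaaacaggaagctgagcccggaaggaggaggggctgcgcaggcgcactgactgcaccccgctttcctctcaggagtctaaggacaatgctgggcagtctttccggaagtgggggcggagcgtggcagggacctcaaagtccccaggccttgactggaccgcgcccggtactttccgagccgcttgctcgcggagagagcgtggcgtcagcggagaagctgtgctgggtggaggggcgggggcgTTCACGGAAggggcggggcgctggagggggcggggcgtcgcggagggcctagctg
Stat2: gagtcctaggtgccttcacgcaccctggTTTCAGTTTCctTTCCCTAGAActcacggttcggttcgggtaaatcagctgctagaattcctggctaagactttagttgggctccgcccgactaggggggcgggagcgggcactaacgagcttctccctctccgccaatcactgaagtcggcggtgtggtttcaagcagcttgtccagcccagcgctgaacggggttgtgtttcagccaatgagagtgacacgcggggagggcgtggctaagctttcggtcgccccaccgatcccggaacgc
Socs1: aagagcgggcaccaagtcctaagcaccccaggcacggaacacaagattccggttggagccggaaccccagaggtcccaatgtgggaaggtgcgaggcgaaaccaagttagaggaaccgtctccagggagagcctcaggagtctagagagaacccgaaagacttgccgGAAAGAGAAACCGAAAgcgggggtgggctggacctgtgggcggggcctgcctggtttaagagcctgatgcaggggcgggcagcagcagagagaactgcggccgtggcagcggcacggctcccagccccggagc
Socs3: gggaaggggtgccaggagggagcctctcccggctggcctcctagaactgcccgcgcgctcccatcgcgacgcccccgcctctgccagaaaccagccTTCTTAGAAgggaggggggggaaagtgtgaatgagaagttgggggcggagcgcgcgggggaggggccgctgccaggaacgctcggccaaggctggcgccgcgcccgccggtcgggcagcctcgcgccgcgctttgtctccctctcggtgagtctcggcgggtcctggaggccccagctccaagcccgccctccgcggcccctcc
The windows lie at chr11:100939491-100939790 for Stat3, chr17:29490535-29490834 for Pim1, chr10:19591699-19591998 for Ifngr1, chr16:91484965-91485264 for Ifnar1, chr10:128270248-128270547 for Stat2, chr16:10785487-10785786 for Socs1 and chr11:117969317-117969616 for Socs3, with Stat3, Socs1 and Socs3 on the minus strand and the others on the plus strand. The site covered all 300 bases at Stat3, Ifngr1, Ifnar1 and Socs3, 292 at Pim1, 278 at Stat2 and 102 at Socs1. Inside the sites lay the match at Ifnar1, which spans the start, the match at Socs3 (chr11:117969512-117969520) and both matches at Stat2 (chr10:128270276-128270285 and chr10:128270288-128270297). At Socs1 the 2 overlapping matches lay 21 and 15 bases beyond the end of the site. Over the 15 member promoters with a site, TTCNNNGAA was found in 2 (13.3%), the STAT-type motif with the longer spacer in 1 (6.67%) and the interferon response element-type motif in 2 (13.3%). The shares over all 32851 promoters of this length were 8.30%, 6.95% and 3.44%, and over the 4208 that overlapped a site in the table they were 5.30%, 4.30% and 2.28%. The ETS-type letters GGAAGT were in 3 (20%) and the RUNX-type letters TGTGGT in 2 (13.3%) of the 15, against 23.8% and 16.8% of all promoters and 27.7% and 11.8% of those with a site. These matches describe letters and are not shown to be bound. In composition the 15 member promoters were like other promoters with a site, with a median GC content of 63.3% against 64% and a median of 26 against 25 CpG pairs, where all promoters had 52.7% and 7. Jak2 and Pim1 were the most GC-rich of the 15, at 81% and 81.3%, and Il2rg, with 3 CpG pairs, the least at 50.3%.

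Whole reads per library were recovered from the deposited group values, and the libraries are given throughout in order of depth within a group, since they carry no replicate number. Depth, with the mean of the 6 libraries set to 1, was 1.28, 0.916 and 0.792 for WT, against 1.93, 1.07 and 0.00577 for UTX-deficient samples. The shallowest UTX-deficient library was close to empty and held 0 reads at each of the 54 sites. The information in every comparison below thus comes from 3 WT and 2 UTX-deficient libraries. The authors' folds, FDRs and concentrations are nevertheless those of 3 against 3 samples and include the near-empty library. What they would be without it is not known. Summed over the 54 sites there were 2707, 2108 and 1578 WT reads, against 139, 213 and 0 UTX-deficient reads. Reads divided by relative depth are called normalized reads. The labelled cell type was checked against markers through sites higher in WT: 7 of 8 T cell genes had one (not Cd3g), 7 of 7 progenitor genes, 2 of 5 of terminally differentiated cells (Cxcr6 and Cx3cr1), and none of 5 B cell, 6 myeloid and dendritic, 3 natural killer and 4 pancreatic genes. Of 5 stromal and endothelial genes, Pecam1 had one. Sites are not expression, and in bulk libraries fewer cells with UTX at a site and less UTX per cell cannot be told apart.

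The UTX signal fell in UTX-deficient cells at all 54 sites in the authors' deposited table (FDR under 0.05, log2 folds from -4.90 to -1.97). The table consists of differing sites, and 99.7% of all its 6739 sites were higher in WT, so this direction says nothing particular about cytokine genes. At FDR 0.01 in the authors' deposited table, the count was 48 of the 54 sites, where 86.6% of the whole table did, and at FDR 0.001 there were 42, where 72.7% did. Each WT library lay above each UTX-deficient library at 54 of 54 sites, as at 99.7% of the table's sites. At the member sites the near-empty library, at 0 reads, could not break this order. The narrowest gap was a ratio of 2.71 between the lowest WT and the highest UTX-deficient library. With 3 libraries a group the smallest two-sided p of an exact permutation test is 0.1, and it is larger with 2 informative libraries in 1 group. Single sites therefore rest on the fits across all sites. In limma on log2(normalized reads + 1) over 6736 sites, 54 of 54 were lower in UTX-deficient cells at an adjusted p under 0.05, with all 6 libraries and without the near-empty one, where 99.7% of sites were. The sites are listed because they differed in these same reads, and the fit with 6 libraries counts the near-empty one as a UTX-deficient sample at 0, so these counts are no independent check.

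Of the 40 genes, 32 (80%) had a site higher in WT assigned to them, against 22.1% of 21900 protein-coding genes. With only sites in the gene or within 1 kb of it the count was 29, against 20.3%. The 40 genes were chosen with earlier results of these data known, so these shares may be set by that choice, and no test is given. Of 66 other genes of the pathway, described below, 24.2% had a site. In strength and in fold the medians of the member sites were close to those of the table. The median WT concentration (log2 of mean normalized reads) was 4.87 in the authors' deposited table, against 4.94 over all sites higher in WT, and the median log2 fold was -3.51 against -3.51. The members held 0.777%, 0.761% and 0.787% of the reads in such sites in the 3 WT libraries, for 0.804% of the sites. In the 2 informative UTX-deficient libraries together, the mean signal was a median of 5.59% of the WT mean at member sites and 5.75% over the table. Every member site kept at least 1 read in UTX-deficient cells. Of all 6718 sites higher in WT, 101 kept none. Such sites were too rare for their absence among 54 member sites to set the members apart. One site was listed for 18 genes, 2 sites for 10 genes, 3 for Il21r and Stat6, and 5 for Il6st and Jak1. Of 5237 genes in the table, 54 had 5 or more.

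**Figure D1:**
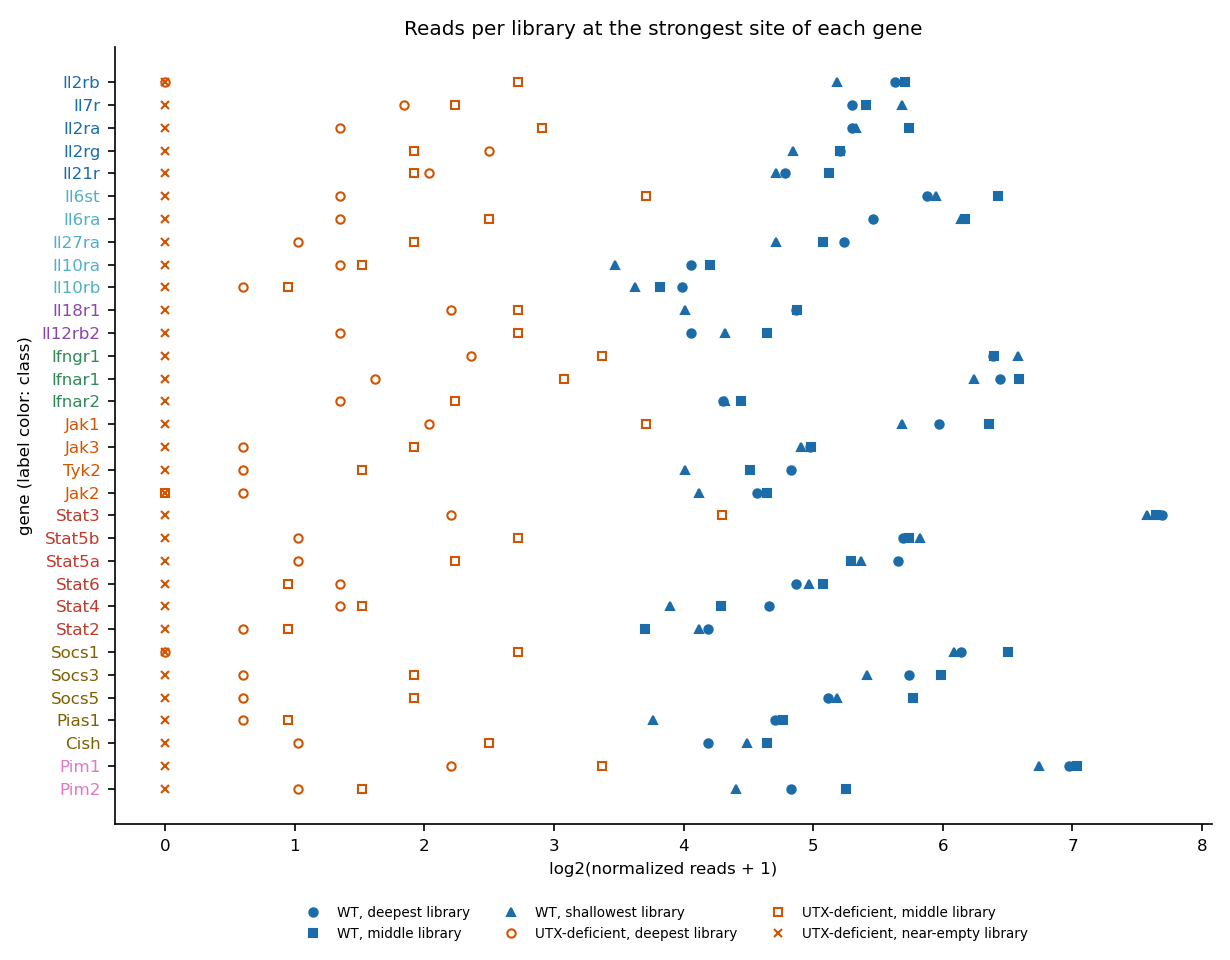
Reads in each of the 6 libraries at the site with the highest WT level of each of the 32 genes, as log2(normalized reads + 1). Filled blue symbols are the 3 WT libraries and orange symbols the 3 UTX-deficient ones, and at each gene all WT symbols lie to the right of all UTX-deficient ones, with the near-empty library at 0 throughout.

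Of the common-gamma family, the receptors for IL-2, IL-7 and their relatives, 5 of 8 genes had a site, 9 sites in all, with a median log2 fold in the authors' deposited table of -3.32. Il7r, the receptor chain for the survival cytokine IL-7, had 2 sites of unlike strength. The stronger one (chr15:9574879-9575279) lay 45203 bp upstream of the start and held 49, 38 and 40 WT reads and 5, 4 and 0 UTX-deficient reads. The one in the gene, 1358 bp past the start, held 22, 11 and 11 against 2, 1 and 0. Log2 folds in the authors' deposited table were -3.56 (FDR 1.07e-11) and -2.48 (FDR 0.0254), and no WT library overlapped a UTX-deficient one at either. The nearest gene end to the upstream site was that of Spef2, so its tie to Il7r is the authors' assignment. Il2ra, the high-affinity chain that activation induces, had 1 site inside the gene, 10776 bp past the start, with 49, 48 and 31 WT reads and 3, 7 and 0 UTX-deficient reads. Il2rb, the chain shared by IL-2 and IL-15, had 2 sites in the gene 1604 bp apart, and the stronger held 62, 47 and 28 reads against 0, 6 and 0. Il2rg, the common gamma chain itself, was the single gene of the family with a site at its start, 123 bp upstream of it. That site held 46, 33 and 22 WT reads and 9, 3 and 0 UTX-deficient reads, a log2 fold in the authors' deposited table of -2.84 (FDR 7.75e-07), which is the second smallest of the family.

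Il21r, the receptor for IL-21, had 3 sites of nearly equal WT level, at 25.6 ± 6.2, 25.5 ± 3.80 and 28.6 ± 4.62 normalized reads (SD, n = 3). Only the third (chr7:125607553-125607953) lay in the gene, 4324 bp past the start, with 34, 31 and 20 WT reads and 6, 3 and 0 UTX-deficient reads. The first and the second lay in the 23777 bp between Il4ra and Il21r. They held 29, 30 and 17 reads and 28, 27 and 20 reads in WT, and 1, 3 and 0 at each in UTX-deficient cells. Il4ra, the IL-4 receptor chain, is counted as having no site, yet the first of these sites was 1822 bp from the end of Il4ra and 22133 bp upstream of the Il21r start. The count of 5 of 8 therefore depends on the assignment. Il15ra and Il9r had no site, and the nearest site of the table was 43883 bp from Il15ra, assigned to Fbh1, and 125349 bp from Il9r, assigned to Gm12108.

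The IL-6 and IL-10 receptor group holds 5 of the 40 genes and is not the whole of these families. Outside the 40 genes, Il20rb had a site, while Lifr, Osmr, Cntfr, Il11ra1, Il31ra, Il20ra, Il22ra1 and Il22ra2 had none. Over all protein-coding genes the share with a site was 22.1%. All 5 genes of the group had a site, 10 sites in all with a median log2 fold in the authors' deposited table of -3.50. Most of that signal was at Il6st, which encodes gp130, the chain shared by IL-6, IL-27 and related cytokines. Its 5 sites on chromosome 13 spanned 20623 bp (chr13:112417790-112438412), all upstream of the start, from 46080 to 25858 bp away, and none in the gene. In order of position they held 28, 21 and 36 reads, 50, 35 and 36 reads, 74, 78 and 48 reads, 67, 62 and 33 reads, and 36, 24 and 19 reads in the 3 WT libraries. UTX-deficient libraries held 2, 1 and 0 reads, 2, 4 and 0 reads, 3, 13 and 0 reads, 1, 2 and 0 reads, and 0, 3 and 0 reads at the same sites. The WT peak of the group was thus the third site, at 67.9 ± 15.0 normalized reads (SD, n = 3), beside the fourth at 53.9 ± 13.1. The ranges of their libraries overlap, although within each WT library the third was higher. The log2 folds of these neighbours, 2849 bp apart, were -3.11 (FDR 7.72e-06) and -4.90 (FDR 1.47e-12) in the authors' deposited table, the latter the largest of all 54 member sites. Most of the gap came from the middle UTX-deficient library, in which 17.9% of the WT mean was left at the third site and 3.46% at the fourth, while the deepest library left 2.28% and 0.959%. Exact 95% intervals of the UTX-deficient level from pooled reads overlapped (4.46 to 13.2% and 0.375 to 5.47%, counting error only), and the difference between the sites was not tested. The nearest gene end to each of the 5 sites was that of Gm33905, a neighbouring gene model, so the link to Il6st is the authors' assignment.

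**Figure D2:**
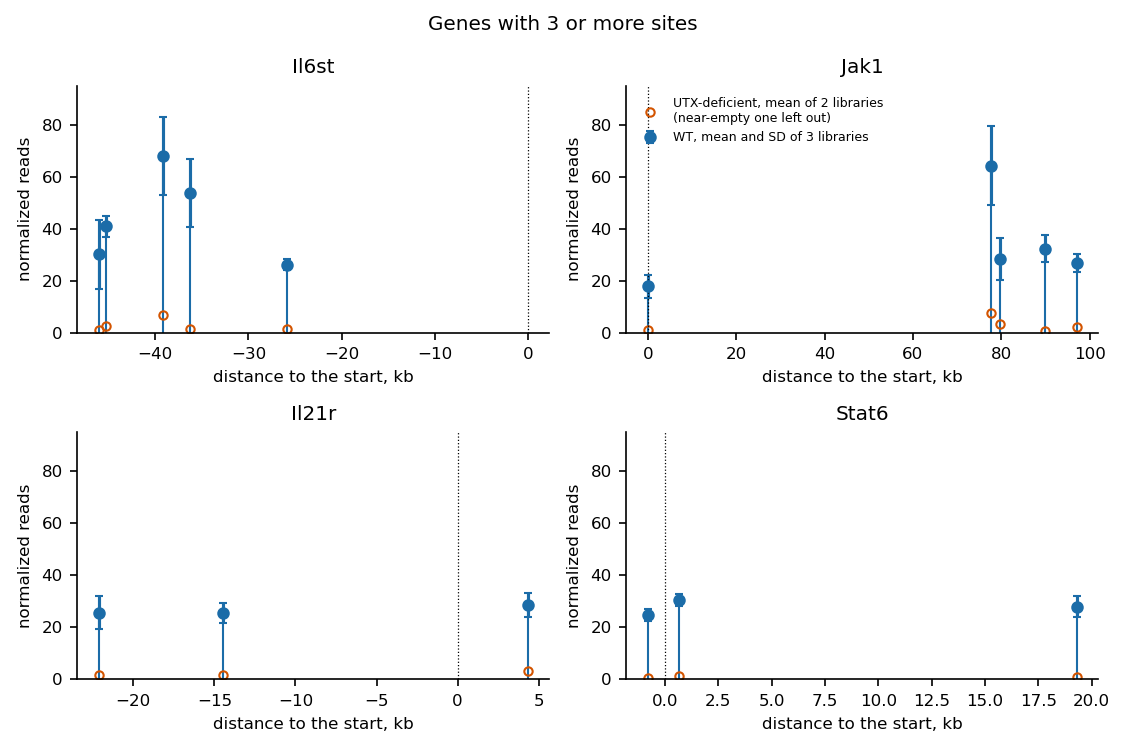
Normalized reads at each site of the 4 genes with 3 or more sites, by distance of the site from the start of the gene in kb, with the start as a dotted line. Filled points with bars are WT mean and SD (n = 3) and open points the mean of the 2 informative UTX-deficient libraries, showing the 5 Il6st sites all upstream and 4 of the 5 Jak1 sites deep in the gene.

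Il6ra, the IL-6-binding chain, had 2 sites within the gene, 40841 and 6953 bp past the start. The first of these (chr3:89872155-89872555) held 55, 65 and 55 WT reads and 3, 5 and 0 UTX-deficient reads, a log2 fold in the authors' deposited table of -4.11 (FDR 3.6e-13), and the second held 21, 17 and 17 against 0, 2 and 0. Il27ra, which pairs with gp130 to bind IL-27, had a site 47 bp from an end of the gene with 47, 30 and 20 WT reads and 2, 3 and 0 UTX-deficient reads. The IL-10 receptor chains had the weakest sites. Il10ra held 20, 16 and 8 reads in WT against 3, 2 and 0, at 22712 bp from the gene. Il10rb held 19, 12 and 9 against 1, 1 and 0, at 170 bp from an end of the gene. Their FDRs in the authors' deposited table, 0.0476 and 0.0432, were close to the 0.05 bound, and the Il10rb site was among the lowest 0.0744% of the table in WT. At FDR 0.01, with 3 of the 5 genes left, neither remained.

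The 2 sites of the IL-12 and IL-18 receptors had the smallest folds of the 54 in the authors' deposited table. The next smallest, -2.10 at Il10ra, was close to that at Il18r1. Il12rb2, the inducible chain of the IL-12 receptor, had a site (chr6:67348057-67348457) inside the gene, 27931 bp past the start, and Il18r1, the IL-18-binding chain, had one (chr1:40473691-40474091) 7885 bp past its start. Il12rb2 held 20, 22 and 15 WT reads and 3, 6 and 0 UTX-deficient reads, and Il18r1 held 36, 26 and 12 against 7, 6 and 0. Each WT library was still above each UTX-deficient one once scaled for depth. Folds in the authors' deposited table were -1.97 (FDR 0.0297) and -2.09 (FDR 0.00441). The 2 informative UTX-deficient libraries averaged 18.3% and 19.3% of WT, values reached by 0.834% and 0.625% of the table's sites. These percentages rest on 9 and 13 reads and differ between the libraries. The deepest alone gave 7.94% at Il12rb2 and 15.1% at Il18r1, and the middle alone 28.6% and 23.4%, where the medians over the table were 2.71% and 8.57%. From pooled reads, the UTX-deficient level was 15.7% of WT at Il12rb2 (exact Clopper-Pearson 95% interval 6.82 to 31.9) and 17.4% at Il18r1 (8.88 to 31.7), intervals that cover counting error only. The sites are singled out as the extremes of the 54, so these values are a description. By limma without the near-empty library the changes were -2.30 ± 0.49 (adjusted p = 0.000224) and -2.12 ± 0.50 (adjusted p = 0.000562; SE, log2). Both sites were weak in WT, at 19.5 ± 4.22 and 23.9 ± 7.58 normalized reads (SD, n = 3). The partner chains Il12rb1 and Il18rap had no site. The nearest one to Il12rb1 lay 11172 bp away and was assigned to Mast3, and the nearest to Il18rap was the Il18r1 site itself, 41471 bp away.

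**Figure D3:**
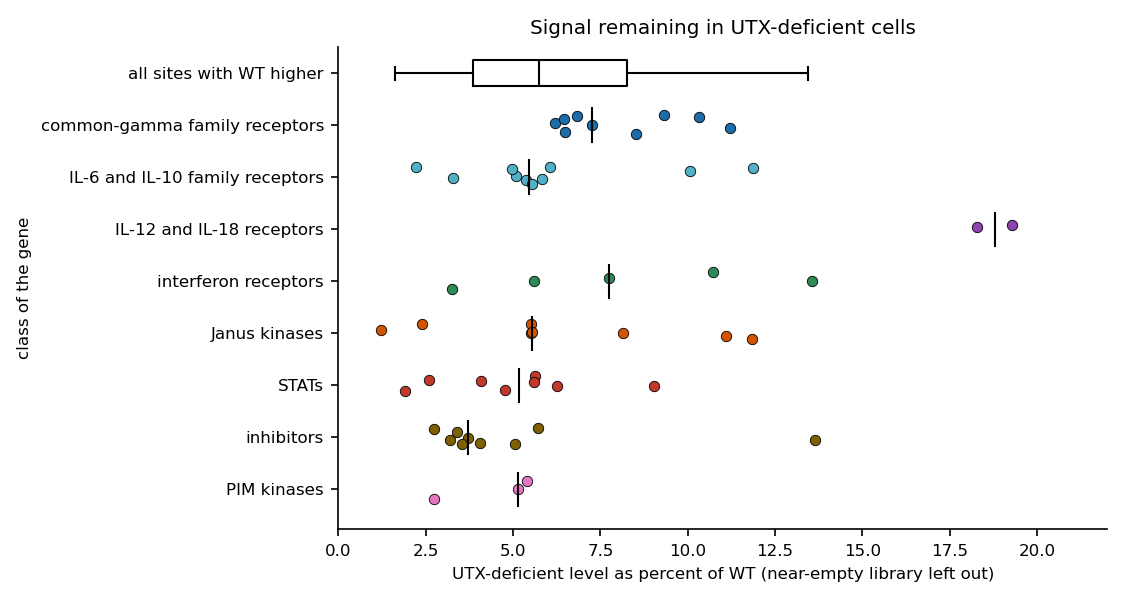
Level in UTX-deficient cells as a percent of the WT mean at each member site (points, by gene class, black ticks for the class median), from the 2 informative UTX-deficient libraries. The box above shows all sites higher in WT (quartiles, with whiskers at percentiles 5 and 95), and the points for Il12rb2 and Il18r1, at 18.3% and 19.3%, lie beyond its upper whisker.

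Of the interferon receptor chains among the 40 genes, Ifngr1, Ifnar1 and Ifnar2 had sites and Ifngr2 had none. Ifnlr1, an interferon receptor chain outside the 40 genes, had a site 21559 bp from the gene. Its log2 fold in the authors' deposited table was -4.15 (FDR 5.62e-13), and it is named here after its values were seen. Ifngr1, the ligand-binding chain for interferon gamma, had a strong site at its start, 86 bp upstream (chr10:19591663-19592063). It held 106, 76 and 75 WT reads and 8, 10 and 0 UTX-deficient reads, with 86.8 ± 6.78 normalized reads in WT (SD, n = 3). Its log2 fold in the authors' deposited table was -3.71 (FDR 3.67e-21). A weaker site 13686 bp upstream held 40, 24 and 13 reads against 3, 4 and 0. Ifnar1, a chain of the type I interferon receptor, also paired a promoter site with an upstream one. The promoter site (chr16:91484950-91485350), 65 bp upstream of the start and over the match marked in the sequence, held 110, 87 and 59 WT reads and 4, 8 and 0 UTX-deficient reads. At the site 9134 bp upstream there were 48, 38 and 28 reads against 3, 1 and 0. Log2 folds in the authors' deposited table were -4.18 and -4.21, and the WT level was 85.2 ± 10.3 normalized reads at the promoter and 38.1 ± 3.11 upstream (SD, n = 3), with no overlap. Ifnar2, the other type I chain, had 1 site 5920 bp upstream, with 24, 19 and 15 WT reads and 3, 4 and 0 UTX-deficient reads. Its log2 fold in the authors' deposited table was -2.40 (FDR 0.00369). The nearest gene end was that of Gm36587 for the Ifnar2 site (1376 bp) and of A930006K02Rik for the upstream Ifnar1 site (5958 bp). The nearest start was that of the assigned gene at both, and the ties to Ifnar2 and Ifnar1 are the authors' assignment.

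These genes lie together on chromosome 16 in the order Ifnar2, Il10rb, Ifnar1, Ifngr2, with gaps of 567, 59197 and 36535 bp. From Ifnar2 to Ifngr2 the site at the Ifnar1 promoter was the strongest in WT and the one at Il10rb the weakest. From Ifnar2 to Ifnar1 the log2 folds in the authors' deposited table were -2.40 at Ifnar2, -2.43 at Il10rb, -4.24 and -3.23 at a pair of sites assigned to the noncoding gene A930006K02Rik, and -4.21 and -4.18 at Ifnar1. The site nearest to Ifngr2 lay 24362 bp before it and was assigned to Mir6367.

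Janus kinases had a site at each of the 4 genes, and at each of them a site lay within 100 bp of a start. The start-proximal sites were of low to middle strength. Jak1 held 27, 18 and 10 WT reads and 2, 1 and 0 UTX-deficient reads, 41 bp upstream of the start. Jak2, used by interferon gamma and IL-12 receptors, held 29, 22 and 13 against 1, 0 and 0, 7 bp upstream. Jak3, which binds the common gamma chain alone, held 39, 28 and 23 against 1, 3 and 0, 67 bp downstream, and was the most even of the member sites in WT at 30.0 ± 0.87 normalized reads (SD, n = 3). Tyk2, which serves type I interferon and IL-12 receptors, held 35, 20 and 12 against 1, 2 and 0, 29 bp upstream. Folds of the 4 sites in the authors' deposited table were -2.95, -3.84, -3.75 and -3.22 in that order. The Jak2 site had 1 UTX-deficient read in all, which is 1.23% of the WT mean over the 2 informative libraries, and the exact 95% interval from pooled reads reached 8.96% (counting error only).

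Jak1, which serves most of the receptors named here, had 4 further sites deep in its 113309 bp gene, between 77656 and 97119 bp past the start. By falling distance from the start they held 30, 24 and 24 reads, 49, 27 and 23 reads, 25, 28 and 28 reads, and 79, 74 and 40 reads in WT. In UTX-deficient cells there were 3, 3 and 0 reads, 3, 0 and 0 reads, 5, 4 and 0 reads, and 6, 13 and 0 reads. The last of these (chr4:101187367-101187767) was the strongest site of the Janus kinases, at 64.4 ± 15.3 normalized reads in WT (SD, n = 3), while the start of Jak1 had 17.8 ± 4.54. Every WT library was higher at that intragenic site than at the start. The 4 intragenic folds ran from -4.15 to -2.81 in the authors' deposited table.

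Each of the 6 STAT genes among the 40 genes had at least 1 site. Stat3, the factor downstream of IL-6, IL-10 and IL-21, had the strongest site of all 54. Its site (chr11:100939437-100939837), 97 bp upstream of a start, held 263, 182 and 150 WT reads and 7, 20 and 0 UTX-deficient reads. The WT libraries were close to each other at 206, 199 and 189 normalized reads, 198 ± 8.19 (SD, n = 3), a level above 99.4% of the table's sites. In the authors' deposited table the log2 fold was -3.91 (FDR 4.69e-08), and limma without the near-empty library gave -4.38 ± 0.76 (SE, adjusted p = 3.37e-05). What remained, 3.62 and 18.6 normalized reads in the 2 informative UTX-deficient libraries, differed between them. The middle library was higher, as it was at 43 of the 54 sites. It was also higher over all sites higher in WT, with a mean of 3.71 normalized reads against 1.18 in the deepest, so this is not particular to Stat3 or the members.

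Stat5a and Stat5b, the factors of IL-2, IL-7 and IL-15, lie beside Stat3 on chromosome 11, with 346 bp between Stat5b and Stat5a and 1636 bp between Stat5a and Stat3. Stat5b held 65, 48 and 44 WT reads and 2, 6 and 0 UTX-deficient reads at a site in the gene, 1632 bp upstream of the nearest of its starts. Stat5a held 63, 35 and 32 against 2, 4 and 0, 134 bp upstream of a start. Folds in the authors' deposited table were -3.98 at Stat5b, -3.96 at Stat5a and -3.91 at Stat3, where the WT concentrations were 5.73, 5.41 and 7.63. Stat6, the IL-4 factor, had 3 sites: 797 bp upstream of the start, 647 bp past it, and 1310 bp beyond the end of the gene. They held 29, 25 and 19 reads, 36, 30 and 24 reads, and 41, 22 and 22 reads in WT, with 0, 1 and 0 reads, 3, 1 and 0 reads, and 1, 1 and 0 reads in UTX-deficient cells. Log2 folds in the authors' deposited table were -4.19, -3.84 and -4.16. Stat4, the IL-12 factor, and Stat2, which joins the type I interferon complex, had the weakest STAT sites. Stat4 held 31, 17 and 11 reads in WT against 3, 2 and 0, 11667 bp past the nearest start, and Stat2 held 22, 11 and 13 against 1, 1 and 0, 28 bp upstream of its start, over the marked letters. Their log2 folds in the authors' deposited table were -2.68 (FDR 0.00315) and -2.79 (FDR 0.0120).

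Among the inhibitors, Socs1, Socs3, Socs5, Cish and Pias1 had sites, and Socs2 and Socs7 had none. Socs1 and Socs3 encode proteins that block Janus kinases directly and act on interferon and gp130 signalling. At each of these genes a site at the start was paired with another downstream of it, 13295 and 16871 bp from the start, beyond the end of the gene. Socs1 (chr16:10785188-10785588), 148 bp past the start, held 89, 82 and 53 WT reads and 0, 6 and 0 UTX-deficient reads. The downstream site at Socs1 held 69, 66 and 46 against 3, 5 and 0. At Socs3 the order was reversed, with 34, 23 and 25 reads at the promoter site and 67, 57 and 33 at the downstream site (chr11:117952295-117952695) in WT, and 2, 1 and 0 and 1, 3 and 0 in UTX-deficient cells. The log2 folds in the authors' deposited table were -4.72 and -4.19 for Socs1 and -3.89 and -4.63 for Socs3, start-proximal site first. The values of -4.72 and -4.63 were the largest of the class, followed by the first Socs5 site at -4.19. Socs1 WT levels were 75.3 ± 12.4 and 61.4 ± 9.48 normalized reads (SD, n = 3), with overlapping ranges, although within each WT library the site at the start was higher. At Socs3 the downstream site (52.1 ± 10.3) exceeded the promoter (27.8 ± 3.38), and the ranges did not overlap.

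Socs5 had a site 100 bp from an end of the gene with 43, 49 and 28 WT reads and 1, 3 and 0 UTX-deficient reads, and another in the gene with 29, 18 and 16 against 1, 2 and 0. Cish, a STAT5 target that dampens IL-2 and T cell receptor signals, held 29, 14 and 15 reads against 2, 0 and 0 at 736 bp upstream of the start and 22, 22 and 17 against 2, 5 and 0 at 16425 bp downstream of it. Pias1, a SUMO ligase that restrains STAT factors, held 32, 24 and 10 reads against 1, 1 and 0 at its promoter. The nearest site to Socs2, a STAT5-induced inhibitor of growth hormone signalling, was 70116 bp away at Cradd, and that to Socs7 36548 bp away at Arhgap23.

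PIM kinases are survival kinases induced by STAT5 and STAT3. Pim1 and Pim2, the family members among the 40 genes, had sites. Pim1 had the second strongest member site in WT and the smallest FDR. That site (chr17:29490426-29490826), 159 bp upstream of the start, held 159, 119 and 84 WT reads and 7, 10 and 0 UTX-deficient reads, with 120.1 ± 12.5 normalized reads in WT (SD, n = 3) and a log2 fold in the authors' deposited table of -4.22 (FDR 1.2e-23). A site 53459 bp upstream of Pim1 held 75, 48 and 34 reads against 0, 3 and 0, a log2 fold in the authors' deposited table of -4.85 that is second only to the fourth Il6st site among the members. Its nearest gene end, 253 bp away, was that of Gm36486. Pim2 held 35, 34 and 16 WT reads and 2, 2 and 0 UTX-deficient reads at its promoter, 69 bp upstream of the start. Pim3, which is not among the 40 genes, also had a site, 87 bp from an end of the gene, with 70, 73 and 22 WT reads and 5, 6 and 0 UTX-deficient reads, and a log2 fold in the authors' deposited table of -3.46 (FDR 1.19e-07). It is named here after its values were seen.

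**Figure D4:**
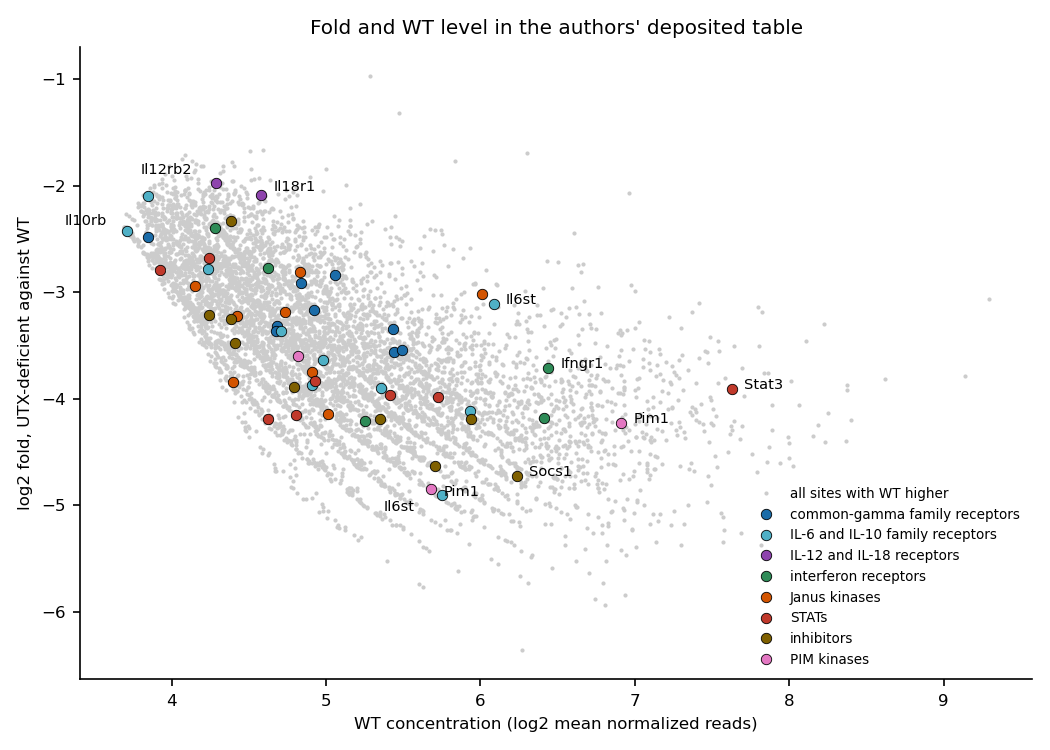
Log2 fold of UTX-deficient against WT cells and WT concentration, both from the authors' deposited table, for the 54 member sites (colored by class) over all 6718 sites higher in WT (grey). Stat3 lies farthest right, the upstream Il6st and Pim1 sites lowest, and Il12rb2 and Il18r1 highest.

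The position of the sites against gene starts was then compared between receptor genes and the genes of the signalling cascade. A site middle within 1 kb of a RefSeq start of the gene was found for 3 of 21 receptor sites (14.3%) and 15 of 26 signalling sites (57.7%), where the whole table had 61.0%. The 3 receptor sites were those at Il2rg, Ifngr1 and Ifnar1. The other 7 sites, at Il2rb, Il27ra, Il10ra, Il10rb and Socs5, could not be placed this way because their genes have no start in the reference used. Measured to either end of the gene, which covers all 54, 5 of 26 receptor sites (19.2%) and 16 of 28 signalling sites (57.1%) were within 1 kb, against 53.2% of the table. The median distance to a start was 13686 bp for receptor sites, 691.5 bp for signalling sites and 245.5 bp for the table. Of the members' sites, 13 lay more than 1 kb upstream of a start and 16 more than 1 kb downstream. These are counts over sites, of which up to 5 share a gene, and carry no test.

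**Figure D5:**
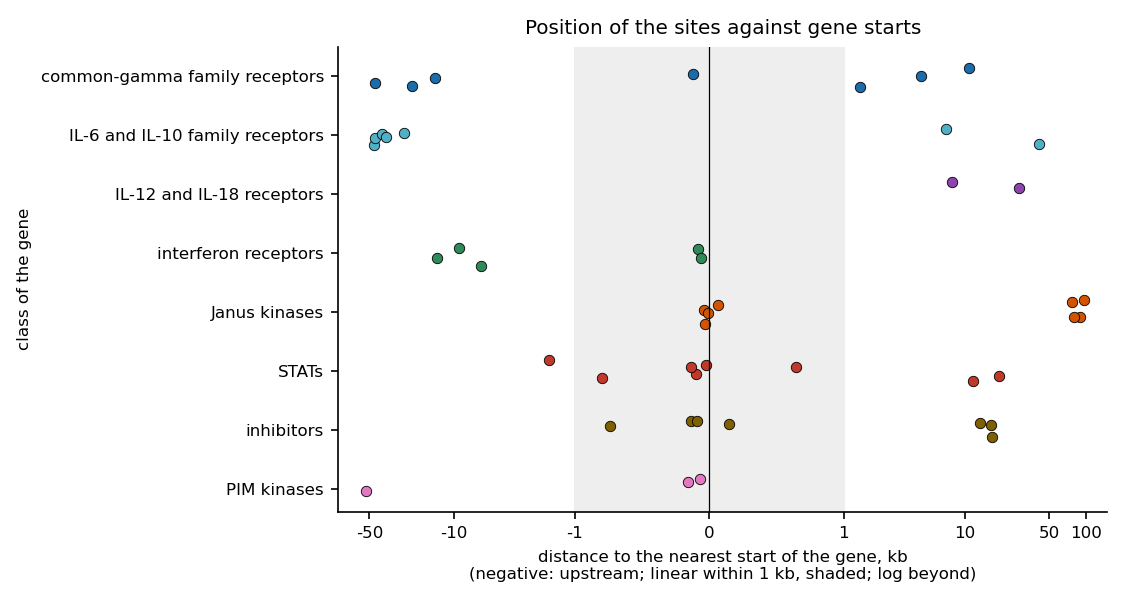
Distance in kb from the middle of each site to the nearest start of its gene, by gene class, for the 47 sites with a start in the reference (linear within 1 kb, shaded, and logarithmic beyond). Receptor classes have 3 points in the shaded band and the signalling classes 15, and the Il6st sites form the group upstream in the IL-6 and IL-10 row.

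Folds and remaining signal were set side by side in the same way. The median log2 fold in the authors' deposited table was -3.33 for the 26 receptor sites and -3.84 for the 28 signalling sites. The median level remaining in UTX-deficient cells was 6.66% and 5.10% of WT, against 5.75% over the table. By class it was 7.27% at common-gamma receptors, 5.44% at the IL-6 and IL-10 group, 18.8% at IL-12 and IL-18 receptors, 7.75% at interferon receptors, 5.54% at Janus kinases, 5.18% at STATs, 3.71% at inhibitors and 5.13% at PIM kinases. The IL-12 and IL-18 receptors, with 2 sites, had the highest class median in the deepest (11.5%) and in the middle library alone (26.0%). The lowest class median was that of the inhibitors over both libraries, of the STATs in the deepest (2.19%) and of the PIM kinases in the middle one (6.61%). Median WT concentrations in the authors' deposited table were 4.92 for receptors and 4.83 for signalling genes. Mean normalized reads per WT library were 34.9, 39.5 and 34.6 for receptor sites and 43.2, 45.5 and 39.0 for signalling sites. Stat3 made most of that gap: without it the signalling mean was 37.2, 39.8 and 33.4, below the receptors in the shallowest library.

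Beyond the 40 genes, 66 others of the pathway were looked up, among them further SOCS and PIAS genes, phosphatases, other cytokine receptors and the cytokines. A site was assigned to 16 of the 66 (24.2%), against 22.1% of protein-coding genes, and all 19 of their sites were higher in WT. The 5 with the smallest FDR were Sh2b3, an adaptor that restrains JAK2, Il20rb, a receptor chain of the IL-20 family, Ifng, encoding interferon gamma, and the phosphatases Ptpn2 and Ptpn1, which act on Janus kinases and STATs. Sh2b3 held 116, 82 and 57 WT reads and 7, 3 and 0 UTX-deficient reads, Ptpn2 76, 80 and 50 against 1, 5 and 0, and Il20rb 87, 73 and 55 against 6, 6 and 0. Their log2 folds in the authors' deposited table were -4.42, -4.63 and -3.98. No cytokine gene of the list other than Ifng and Il9 had a site, and these sites lay outside the genes, 21859 bp from Ifng and 2326 bp from Il9.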

How the data were processed

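UTX CUT&Tag libraries of 3 WT and 3 UTX-deficient samples were measured, and the authors' deposited table of their comparison was the 1 file used. The submitters' processing notes name DiffBind, MACS2, Bowtie2, cutadapt, Picard, SAMtools and FastQC, and the mm10 build, without versions or roles. Per the file headers, the concentrations and the fold are log2 values of normalized reads and their change, with a minus sign for a higher WT level. The p-value and the FDR in the deposited table are those of the authors. All FDRs lie under 0.05, so sites that did not differ are not analysed here, and a gene with no row may have one.

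The members and lists were chosen with earlier results of these data known. Every member and site is accounted for. Values of each library are given for the sites with the 10 largest and 5 smallest folds, the 5 highest in WT, every site of genes with 3 or more, and the strongest site of each gene with a site within 1 kb, and from the list of other pathway genes up to 5 are named by FDR. Gene symbols, ends, starts and promoters come from RefSeq (GRCm38.p6), which matched all 40 symbols and held a start for 32. Site distances are from the middle of the site.

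Reads were recovered as whole numbers whose depth-weighted sums give the deposited group values, with both groups solved at 6736 of 6739 sites. Of sums moved off by between 0.05 and 0.45 normalized reads, 0.876% in WT and 0% in UTX-deficient cells had a solution. Tested on a simulated table of 6739 sites, 6716 WT and 6739 UTX-deficient sums were solved rightly and 0 wrongly. They were tested with limma 3.58.1 in R 4.3.3 on log2(normalized reads + 1) with a mean-dependent prior and Benjamini-Hochberg adjustment over 6736 sites. Such reads are not independent molecules, so intervals cover counting error only. One read of the near-empty library is worth 173.2 normalized reads. Alternatives were other FDR bounds, distance limits, pseudocounts, a filter on low values and each library left out.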

Additional observations from a re-analysis of the deposited data

How the results depend on the processing

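All 54 sites were also lower in limma with all 6 libraries, without the near-empty one, with pseudocounts of 0.5 and 5 and with each library left out. Because the sites were listed for differing in the same reads, and because the near-empty library stays in as a sample at 0 in 8 of these 9 fits, these counts say little about stability. Leaving out the deepest or the middle UTX-deficient library leaves 1 informative library in that group. A filter at a mean of 20 normalized reads over all libraries left 19 of the 54 sites, because fewer sites were tested. The median log2 fold, -3.51 in the authors' deposited table, was -4.10 in limma with all 6 libraries, -3.57 without the near-empty library, -4.61 with a pseudocount of 0.5 and -2.51 with one of 5, and leaving out each other library in turn gave -4.41 to -4.10. The size of a fold at sites with few UTX-deficient reads thus depends on the prior count. The median WT concentration was 5.02 with 1 site per gene, the highest in WT. IL-6 and IL-10 family genes with a site went from 5 to 3 within 10 kb, to 3 within 1 kb and to 3 at FDR 0.01, and IL-12 and IL-18 receptor genes from 2 to 1 at FDR 0.01. Taking overlap with the promoter window in place of 1 kb from a start gave 15 sites in place of 18, and the median log2 fold without the Stat3 site was -3.48; the median UTX-deficient level, 5.59% of WT, was 3.14% in the deepest library alone and 8.75% in the middle one alone. These alternatives were chosen after seeing the data. No paired analysis was possible because the deposited columns are group values and the recovered libraries carry no replicate number. With totals of 1 to 27 UTX-deficient reads at a site, the share of signal left is known only roughly at any single site.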
